A study of Mus musculus with 2 samples.

Results

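Keratin and small proline-rich protein genes were described in gemcitabine-resistant and wild type KPC2 cells, a mouse pancreatic cancer line. The members are the rows of the deposited gene table whose symbol is Krt followed by a number and at most 1 letter, or Sprr followed by a member number. This gave 69 genes of 55468 rows, 54 keratin genes and 15 Sprr genes. The resistant group is KPC2 cells under prolonged exposure to 260 ng/mL gemcitabine, a deoxycytidine analogue, and the wild type group is KPC2 cells that received none. Both grew in DMEM with fetal bovine serum, GlutaMAX and antibiotics. Each group is 1 RNA library, so no test between the conditions was possible and every difference below describes these 2 libraries. Only the resistant cells were kept in the drug, so the drug itself and whatever persists in these cells without it cannot be told apart. Values are levels per kilobase of transcript, read as FPKM, fragments scaled for transcript length and library depth.

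Keratins are the intermediate filament proteins of epithelial cells. A filament is built from pairs of a type I (acidic) and a type II (basic) keratin, and the pair in use follows the kind of epithelium. Simple epithelia such as pancreatic ducts use Krt8 with Krt18 and Krt19. The basal layer of stratified epithelia uses Krt5 with Krt14, and the layers above it use pairs such as Krt1 with Krt10 or Krt4 with Krt13. Small proline-rich proteins are short precursors of the cornified envelope, which transglutaminases cross-link under the membrane of squamous cells. Their genes lie side by side in the epidermal differentiation complex, and Sprr genes are also induced outside the skin by injury and stress.

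Of the 69 members, 13 reached 1 FPKM in either library and counted as measured: 7 type I keratins, 4 type II keratins and 2 Sprr genes. Another 23 members lay above 0 and below 1 FPKM, and 33 were listed at 0 in both libraries. A doubling or more in resistant cells, taken as a log2 ratio of FPKM + 1 of 1 or above, was seen for 5 of these 13: Krt79, Krt14, Sprr1a, Krt7 and Sprr2a3. For none of the 13 was the log2 ratio -1 or below, which leaves 8 within 2-fold. Among all 12193 measured genes the share past 2-fold was 7.9% upward and 8.37% downward in resistant cells. On the same scale with its pseudocount of 1, 3 of the 13 members were at least 4-fold higher (Krt79, Krt14 and Sprr1a), against 1.8% of all measured genes. Krt7 was just short of this line with a log2 ratio of 1.97, though its FPKM ratio without a pseudocount was 4.32. No member was at least 4-fold lower, against 1.05% of all measured genes. The median log2 ratio of resistant over wild type was 0.55 for the 11 measured keratins and 1.70 for the pair of measured Sprr genes, beside 0.02 for all measured genes.

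**Figure D1:**
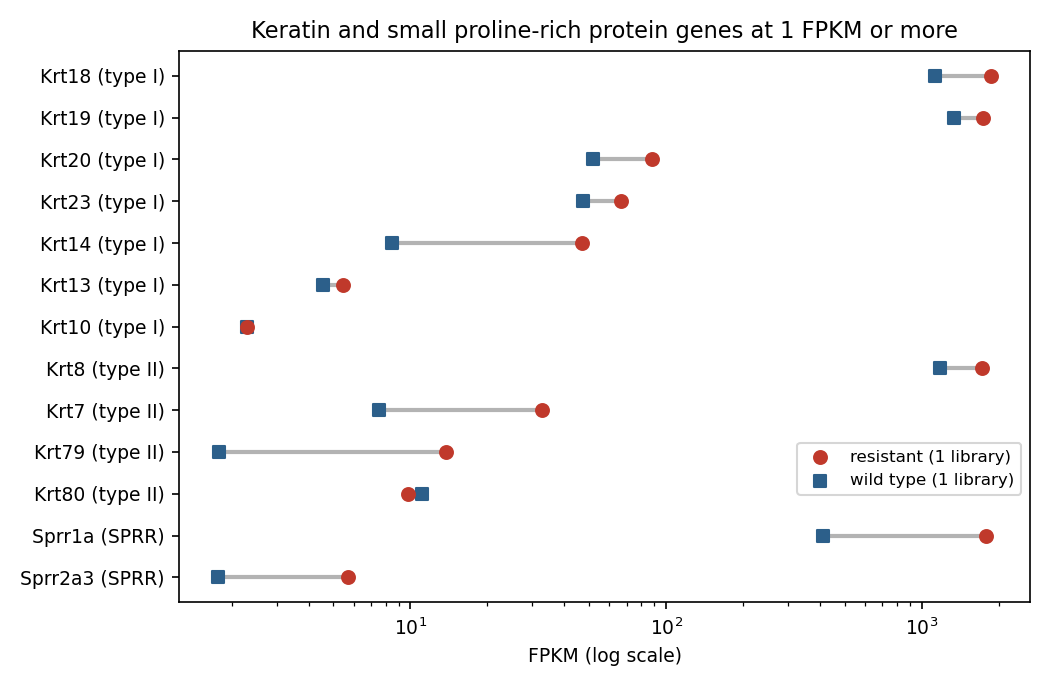
Level in FPKM (horizontal log axis) of the 13 measured members, with circles for the resistant library and squares for the wild type library, 1 library each, grouped as type I keratins, type II keratins and Sprr genes (SPRR). Krt8, Krt18, Krt19 and Sprr1a stand between 1722 and 1864 FPKM in resistant cells, and the circle lies well to the right of the square for Krt14, Krt7, Krt79, Sprr1a and Sprr2a3.

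The simple epithelial keratins made up nearly all of the keratin mRNA in both libraries. Krt8, the type II keratin of simple epithelia (chromosome 15, 101996698 to 102004482 on GRCm38, minus strand), stood at 1722 FPKM in resistant and 1176 FPKM in wild type cells. Krt18, its usual type I partner (chromosome 15, 102028180 to 102032027, plus strand), stood at 1864 FPKM in resistant and 1123 FPKM in wild type cells. Krt19, the type I keratin typical of ducts (chromosome 11, 100140810 to 100148665, minus strand), stood at 1738 FPKM in resistant and 1332 FPKM in wild type cells. Each was therefore higher in the resistant library but within 2-fold. The ratios of FPKM, resistant over wild type, were 1.46 for Krt8 (1.45 to 1.48), 1.66 for Krt18 (1.64 to 1.68) and 1.31 for Krt19 (1.29 to 1.32). The bounds in parentheses here and below are exact 95% intervals from fragments estimated from the values. They cover counting error only, and not the spread between cultures, which was not measured. Together these genes held 95.2% of the summed keratin FPKM in resistant and 96.4% in wild type cells.

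The order of the 3 most abundant keratins differed between the libraries. In resistant cells Krt18 was highest, at 1.08 times Krt8 in FPKM, and Krt19 stood at 1.01 times Krt8. In wild type cells Krt18 stood at 0.95 times Krt8, and Krt19 was highest at 1.13 times Krt8. Summed over all members, type I keratins came to 3813 FPKM in resistant and 2570 FPKM in wild type cells, and type II keratins to 1779 FPKM in resistant and 1197 FPKM in wild type cells. The type I sum was 2.14 times the type II sum in resistant cells and 2.15 times in wild type cells. Both sums were thus about equally higher in the resistant library, 1.48-fold for type I and 1.49-fold for type II. All genes in the table summed to 1197279 in resistant and 998508 in wild type cells, and of 1000 units of that sum the 69 members held 6.17 in resistant and 4.19 in wild type cells.

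**Figure D2:**
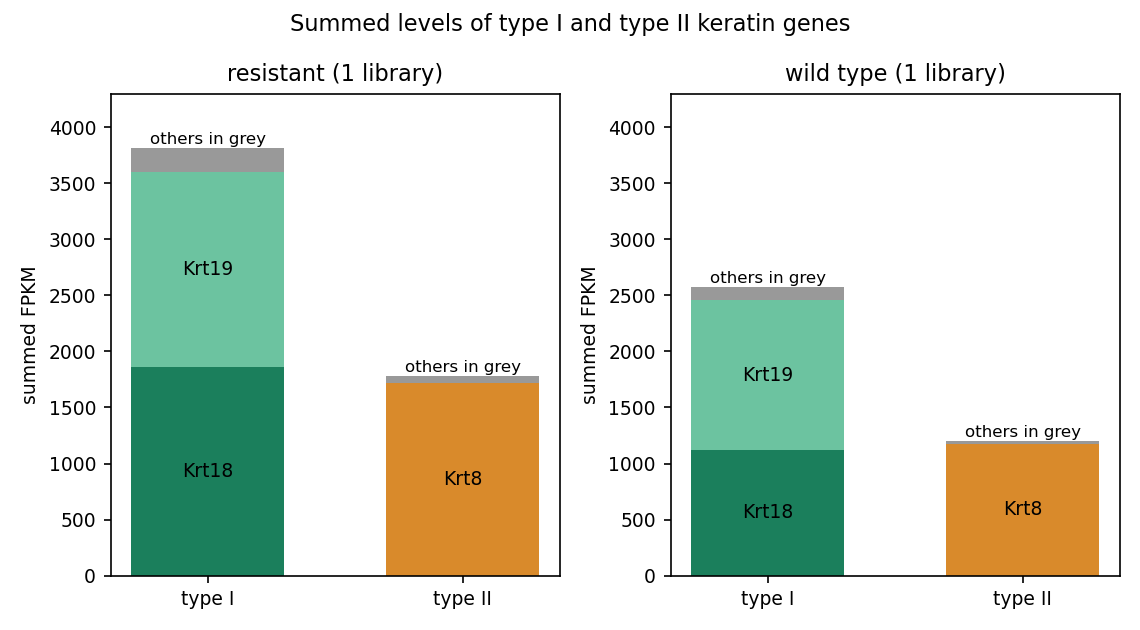
Summed FPKM (vertical axis from 0) of type I and type II keratin genes in the resistant library (left) and the wild type library (right), with Krt18, Krt19 and Krt8 in colour and all other keratins in grey. Both columns are taller in the resistant library, 3813 against 2570 FPKM for type I and 1779 against 1197 FPKM for type II.

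Among keratins of other simple or transitional epithelia, Krt7 stood out in resistant cells. Krt7, a type II keratin of ducts and bladder lining (chromosome 15, 101411043 to 101430313, plus strand), stood at 32.6 FPKM in resistant and 7.56 FPKM in wild type cells, a 4.32-fold ratio (3.98 to 4.69) and a log2 ratio of 1.97 with the pseudocount. Krt20, a type I keratin of intestinal and urothelial surface cells (chromosome 11, 99428403 to 99438150), stood at 88.3 FPKM in resistant and 51.8 FPKM in wild type cells, 1.70-fold (1.62 to 1.80). Krt23, a type I keratin, stood at 66.6 FPKM in resistant and 47.2 FPKM in wild type cells, 1.41-fold (1.32 to 1.51). Krt80, a type II keratin of differentiating epithelia, was the measured member with the lowest ratio, at 9.75 FPKM in resistant and 11.1 FPKM in wild type cells, 0.88-fold (0.80 to 0.96). Counted on its shortest annotated transcript, Krt80 would rest on 41 fragments in resistant and 48 in wild type cells, with an interval of 0.57 to 1.37 that includes 1. The authors' table places Krt7 and Krt80 in the same locus, on opposite strands, and does not say how fragments were divided there. The annotated gene spans do not overlap, with Krt80 at 101347444 to 101370162 and Krt7 at the position given above.

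Among the 11 measured keratins the largest ratios belonged to genes of stratified or hair follicle epithelium. Krt79, a type II keratin that in mouse skin marks the upper hair follicle and sebaceous duct (chromosome 15, 101929332 to 101940324, minus strand), stood at 13.7 FPKM in resistant and 1.79 FPKM in wild type cells, 7.69-fold (6.23 to 9.60). Krt14, the type I keratin of basal cells (chromosome 11, 100203162 to 100207548, minus strand), stood at 47.0 FPKM in resistant and 8.51 FPKM in wild type cells, 5.52-fold (4.89 to 6.24). With the pseudocount the log2 ratio was 2.40 for Krt79 and 2.34 for Krt14. Krt13, of internal stratified epithelia, stood at 5.47 FPKM in resistant and 4.56 FPKM in wild type cells, 1.20-fold (0.97 to 1.49). Krt10, of the suprabasal epidermis, stood at 2.29 FPKM in both libraries, 1.00-fold (0.76 to 1.33). For Krt13 and Krt10 a difference was not detectable at this depth. For genes with several annotated transcripts (Krt7, Krt10, Krt13, Krt14, Krt19, Krt79, Krt80 and Sprr2a3) fragments were computed on the longest one and are upper figures, so the true counting intervals can be wider. On the shortest transcript the interval was 2.95 to 6.47 for Krt7, 4.26 to 14.8 for Krt79, 4.73 to 6.46 for Krt14 and 1.27 to 1.34 for Krt19. For Krt13 it was 0.24 to 4.49, on 5 fragments in each library. For Krt10 it was 0.52 to 1.88, on 21 fragments in resistant and 22 in wild type cells. On the longest transcript Krt14 rested on 1677 fragments in resistant and 314 in wild type cells, and Krt79 on 730 and 98. On the shortest the counts were 1047 in resistant and 196 in wild type cells for Krt14, and 96 and 13 for Krt79.

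**Figure D3:**
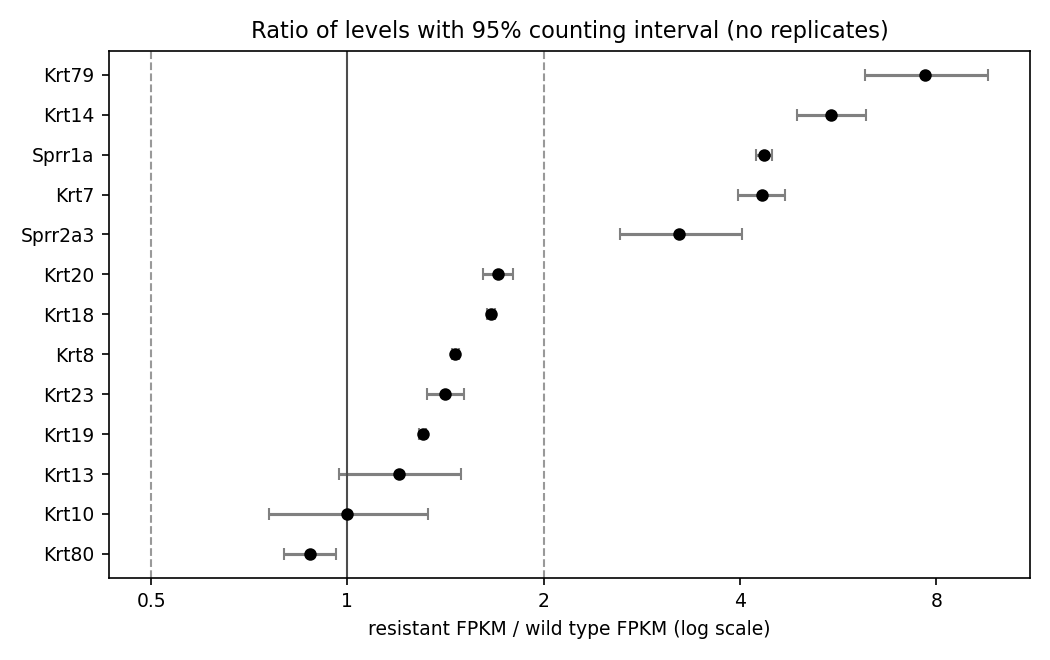
Ratio of resistant over wild type FPKM (horizontal log axis) for the 13 measured members, with bars for the exact 95% counting interval and dashed lines at 0.5 and 2. Krt79 is highest at 7.69 and Krt80 lowest at 0.88, and no member lies between the 1.70 of Krt20 and the 3.23 of Sprr2a3.

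The textbook partners of the stratified keratins were near or at 0. Krt5, which pairs with Krt14, and Krt1, which pairs with Krt10, were listed at 0 in both libraries. Krt4, which pairs with Krt13, stood at 0.07 FPKM in resistant and 0.02 FPKM in wild type cells, 3 fragments and 1. These partners, and the other genes below 1 FPKM named here, were picked after their values were seen. Krt78, the neighbour of Krt79 on chromosome 15, stood at 0.50 FPKM in resistant and 0.11 FPKM in wild type cells, 38 and 9 fragments, a 4.37-fold ratio (2.07 to 10.3). Krt33a, a hair keratin, stood at 0.28 FPKM in resistant and 0.03 FPKM in wild type cells, 10 fragments and 1 on its longest transcript, a ratio of 10.3 that these counts bound only between 1.47 and 448. Krt76, an oral epithelium keratin, stood at 0.02 FPKM in resistant and 0.21 FPKM in wild type cells, 1 and 11 fragments. Of the 17 keratins above 0 and below 1 FPKM, 10 were higher and 7 lower in resistant cells, and the highest value among them was the 0.50 FPKM of Krt78. The remaining 26 keratins, among them hair keratins such as Krt31 and Krt81, were listed at 0 in both libraries.

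Sprr1a was the member with the largest difference in level. Sprr1a, a cornified envelope precursor that in the mouse is also induced in injured neurons and stressed heart muscle (chromosome 3, 92483952 to 92485895 on GRCm38, minus strand), stood at 1789 FPKM in resistant and 411 FPKM in wild type cells. The ratio was 4.35 (4.23 to 4.47), from about 26714 fragments in resistant and 6344 in wild type cells. In order of FPKM it ranked 60 of 12193 measured genes in resistant cells and 219 in wild type cells. Its level was 1.04 times that of Krt8 in resistant cells and 0.35 times that of Krt8 in wild type cells. Sprr1a held 99.6% of the summed Sprr FPKM in resistant and 99.5% in wild type cells, so the summed Sprr level (1796 FPKM in resistant, 413 FPKM in wild type cells) is in effect this gene. Its closest relative by name, Sprr1b (chromosome 3, minus strand), stood at 0.13 FPKM in both libraries, 2 fragments each.

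The bases before the Sprr1a and Sprr1b start sites are shown because these genes carry similar names and lie in the same cluster at very different levels. They come from RefSeq on build GRCm38.p6, are written 5′ to 3′ on the minus strand, and leave out bases that GENCODE M21 places in an exon. Sprr1a covers chr3:92485896-92486131 and Sprr1b chr3:92438790-92439029. Capitals mark TGANTCA, the core that AP-1 (Jun and Fos family) dimers bind, and TATAAA, the TATA box.
Sprr1a: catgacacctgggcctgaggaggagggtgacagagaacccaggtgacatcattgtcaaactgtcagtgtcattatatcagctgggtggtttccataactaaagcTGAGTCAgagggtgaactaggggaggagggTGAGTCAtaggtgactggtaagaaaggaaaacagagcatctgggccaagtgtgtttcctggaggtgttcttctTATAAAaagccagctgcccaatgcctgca
Sprr1b: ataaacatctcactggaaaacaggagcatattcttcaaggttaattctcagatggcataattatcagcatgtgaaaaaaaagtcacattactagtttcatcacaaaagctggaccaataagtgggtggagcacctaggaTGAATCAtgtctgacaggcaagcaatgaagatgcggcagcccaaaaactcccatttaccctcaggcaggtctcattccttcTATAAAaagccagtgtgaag
In the Sprr1a window TGAGTCA starts 146 and 116 bases before the RefSeq start and TATAAA 43 bases before it. In the Sprr1b window TGAATCA starts 111 bases and TATAAA 30 bases before the start. The 300-base RefSeq windows of these genes shared no run of identical bases longer than 13.

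Both motifs were searched on either strand in the 250 bases before each RefSeq start, where 50 of the 69 members had an entry. TGANTCA, which reads the same on both strands, was present in 9 of 14 Sprr windows, 64.3%, and in 2 of 37 keratin windows, 5.41%, both of them of Krt13. Of all 32851 promoter windows, 6.75% held it. In Sprr2b, Sprr2d, Sprr2e, Sprr2f, Sprr2h, Sprr2i and Sprr2k a match starts 193 to 198 bases before the start, and TATAAA 29 bases before it. The windows of these related neighbours are not independent. TATAAA was present in 10 of 14 Sprr windows (71.4%) and 17 of 37 keratin windows (45.9%), against 12.4% of all windows. Of the 5 members past 2-fold, Sprr1a alone held either motif in its window, though the RefSeq starts of Krt14 and Krt7 lie inside the GENCODE gene. Sprr2a3 has annotated transcripts of 2880 and 682 bases, and only the bases before its RefSeq start were searched. Whether another start of Sprr2a3 has either motif was not tested. The other 8 Sprr genes that held TGANTCA had at most 7 fragments in either library. A match is a description of these letters and does not show binding.

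Sprr2a3 was the other measured Sprr gene (chromosome 3, 92285417 to 92291405, plus strand), at 5.71 FPKM in resistant and 1.77 FPKM in wild type cells, 3.23-fold (2.62 to 4.04) with a log2 ratio of 1.28. On its shorter annotated transcript this would rest on 22 fragments in wild type cells, with an interval of 1.98 to 5.5. Sprr2a genes encode envelope precursors that are also made by stressed intestinal and bile duct epithelium in the mouse. The value is uncertain, since the longest transcript of Sprr2a3 matches Sprr2a1 at 98.9% identity over 2881 bases and Sprr2a2 at 98.8% over 2866 bases. Sprr2a1 stood at 0.26 FPKM in resistant and 0.04 FPKM in wild type cells. Sprr2a2 was listed at 0 in resistant cells and stood at 0.02 FPKM in wild type cells. Summed over these 3 copies, the level was 5.97 FPKM in resistant and 1.83 FPKM in wild type cells, 3.27-fold. The start regions show how alike the copies are (RefSeq, GRCm38.p6, plus strand, chr3:92285054-92285303 for Sprr2a3 and chr3:92215585-92215798 for Sprr2a1, no capitals because neither motif was found).
Sprr2a3: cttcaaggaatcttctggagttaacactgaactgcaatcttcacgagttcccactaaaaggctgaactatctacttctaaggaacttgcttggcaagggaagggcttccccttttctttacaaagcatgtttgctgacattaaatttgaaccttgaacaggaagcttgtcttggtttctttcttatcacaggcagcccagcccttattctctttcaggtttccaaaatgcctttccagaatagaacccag
Sprr2a1: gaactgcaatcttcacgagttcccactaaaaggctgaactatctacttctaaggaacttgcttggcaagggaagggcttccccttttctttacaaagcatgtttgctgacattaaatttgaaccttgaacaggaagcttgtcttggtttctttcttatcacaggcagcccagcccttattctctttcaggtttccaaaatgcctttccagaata
The 300-base RefSeq windows of Sprr2a1 and Sprr2a3 shared an unbroken run of 272 identical bases, and those of Sprr2a1 and Sprr2a2 were identical.

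Of the other 13 Sprr genes, 6 lay above 0 and below 1 FPKM and 7 were listed at 0 in both libraries, Sprr3 and Sprr4 among them. Sprr2k was the highest of the low ones, at 0.63 FPKM in resistant cells, 7 fragments, and listed at 0 in wild type cells. Of the 6 low Sprr genes 5 were higher and 1 lower in resistant cells.

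Other near copies among the measured members were few. At 90% identity or more over at least 200 bases, Krt8 matched the pseudogene Krt8-ps (6.76 FPKM in resistant, 5.44 FPKM in wild type cells), Krt18 matched Gm5200 (0.08 FPKM in both) and Krt14 matched Krt17 (listed at 0 in both). These levels are small beside those of Krt8, Krt18 and Krt14. Beside these and Sprr2a3, described above, none was found for the other 9 measured members.

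The members fall into 3 clusters, most of whose genes were below 1 FPKM or listed at 0. The chromosome 11 cluster spans 1037111 bases and holds 27 type I members, 6 of them measured. The chromosome 15 cluster spans 684584 bases and holds the 26 type II members with Krt18 at its end, 5 of the 27 measured. The Sprr cluster on chromosome 3 spans 284695 bases with 15 members, 2 of them measured. Genes that are no members added 2 measured pseudogenes on chromosome 11, 1 measured long non-coding RNA gene on chromosome 15 and none on chromosome 3. Some measured members were neighbours in the order of members, namely Krt20 and Krt23 on chromosome 11, and Krt80 with Krt7 and Krt8 with Krt18 on chromosome 15. Of the members past 2-fold, Krt79 lay next to Krt78, at 4.37-fold but below 1 FPKM. Krt14 sat between Krt9 and Krt16, listed at 0 and below 1 FPKM, and Sprr1a between Sprr3 and Sprr4, both listed at 0.

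**Figure D4:**
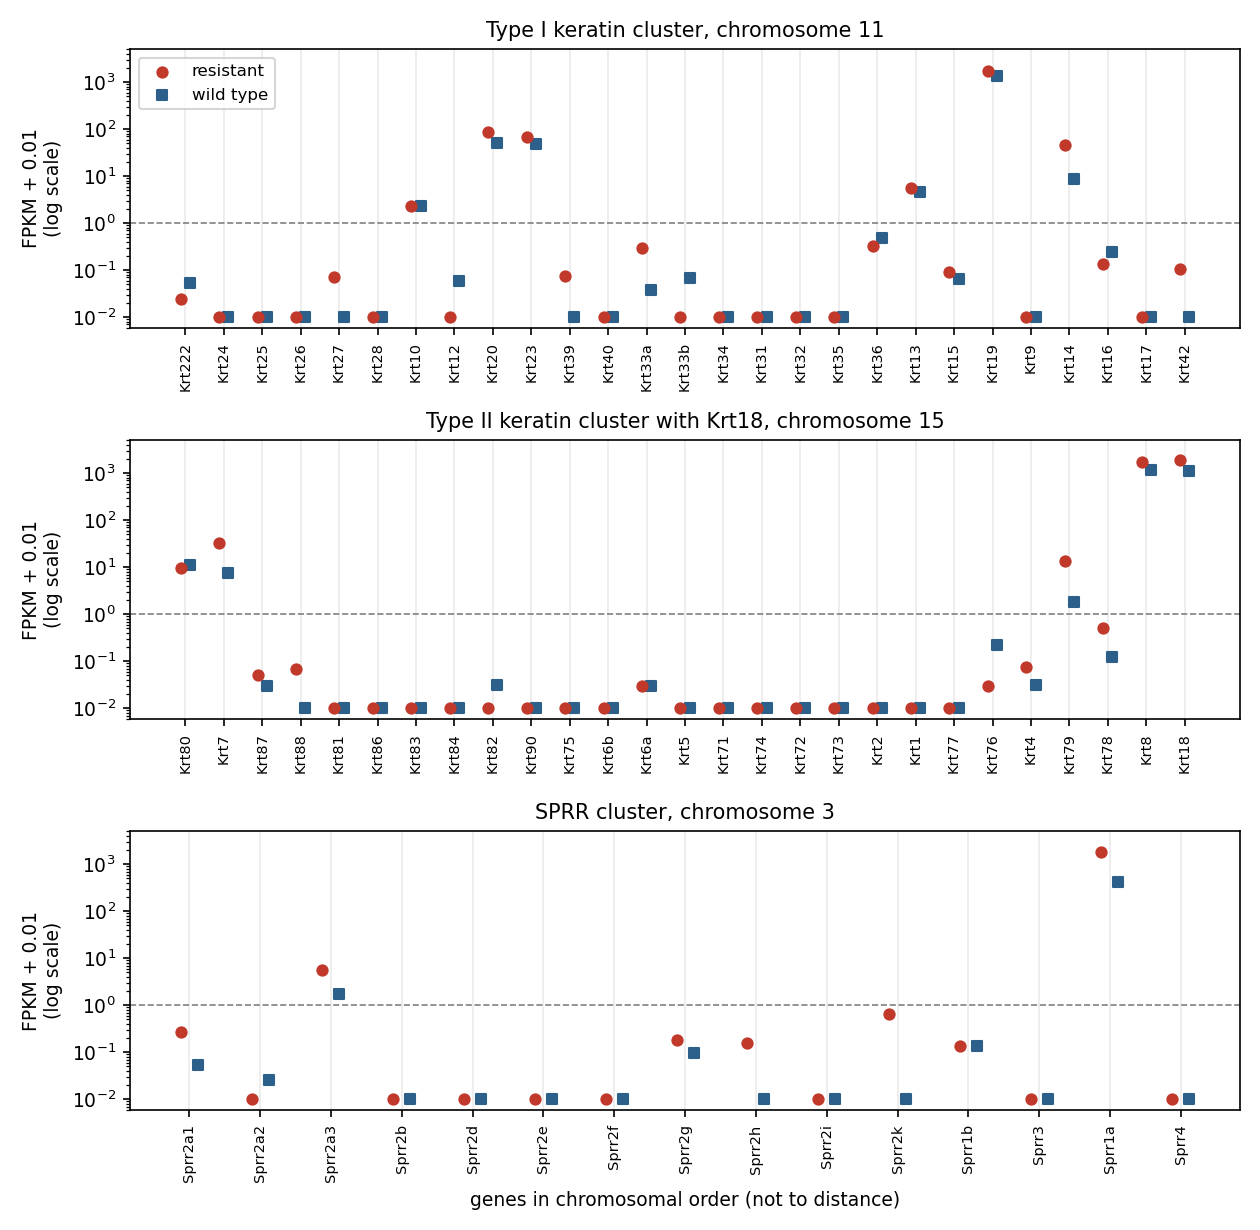
FPKM plus 0.01 (vertical log axis) of all 69 members in chromosomal order in the clusters on chromosomes 11, 15 and 3, with circles for the resistant and squares for the wild type library and points at the bottom for genes listed at 0. The dashed line is the 1 FPKM filter, which 13 members pass.

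The authors' deposited table tests these 2 libraries against each other and called none of the 69 members. The share called among all 13850 genes tested in the authors' deposited table was 0.404%, and 16 members were among those tested. The lowest p-values of members in the authors' deposited table were 0.0013 for Sprr1a, 0.0045 for Krt14 and 0.0055 for Krt79, with q-values of 0.165, 0.35 and 0.399.

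Genes that work with keratins and small proline-rich proteins were set beside them. Of 36 cornified envelope genes, 11 were measured, with 0 at least 2-fold higher, 2 lower and a median log2 ratio of -0.26. Involucrin, Ivl, the scaffold of the envelope, stood at 0.73 FPKM in resistant and 3.03 FPKM in wild type cells, and Ppl, which encodes periplakin, an envelope protein that binds keratin, at 8.84 FPKM in resistant and 20.5 FPKM in wild type cells. The other 9 measured genes of the list lay within 2-fold, and over the list 5 were above 0 and 6 below. Tgm1, which encodes a transglutaminase that cross-links the envelope, stood at 1.37 FPKM in resistant and 0.21 FPKM in wild type cells, a log2 ratio of 0.97. Cstb, which encodes the protease inhibitor cystatin B, stood at 183 FPKM in resistant and 123 FPKM in wild type cells, and Scel, which encodes the envelope precursor sciellin, at 21.3 FPKM in resistant and 20.8 FPKM in wild type cells. The epidermal envelope genes Lor and Flg were at or near 0 in both libraries.

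Of 20 desmosome, hemidesmosome and keratin linker genes, 14 were measured, 0 were at least 2-fold higher and 1 lower, with a median of 0.15. The desmosomal cadherin gene Dsg2 was listed at 0 in resistant cells and stood at 4.38 FPKM in wild type cells. Of 13 other intermediate filament genes, 6 were measured, all with a log2 ratio below 0 and 3 at least 2-fold lower, with a median of -0.94. These include the nuclear lamin genes Lmna, Lmnb1 and Lmnb2, with log2 ratios of -0.37, -1.33 and -0.66. Vim, the most abundant of the list, had a log2 ratio of -0.21. Nestin, Nes, stood at 1.89 FPKM in resistant and 5.73 FPKM in wild type cells. The nuclear lamin gene Lmnb1 stood at 34.9 FPKM in resistant and 89.3 FPKM in wild type cells, and peripherin, Prph, at 0.19 FPKM in resistant and 2.31 FPKM in wild type cells. The keratins, with 9 of 11 measured genes above 0, differed in direction from these filaments, a description with no test. Of all 12193 measured genes, 6188 were above 0 and 6005 below.

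Of 29 transcription factors of stratified and squamous epithelium, 16 were measured, 2 at least 2-fold higher, 2 lower and 12 within, with a median of 0.29. Trp63, whose product specifies basal cells, stood at 0.03 FPKM in resistant cells and was listed at 0 in wild type cells. Klf4, a factor of late squamous differentiation, stood at 20.1 FPKM in resistant and 53.4 FPKM in wild type cells, and Cebpa at 0.28 FPKM in resistant and 2.23 FPKM in wild type cells. Higher were the AP-1 subunit gene Jun, at 6.89 FPKM in resistant and 2.71 FPKM in wild type cells, and Maf, at 4.70 FPKM in resistant and 1.60 FPKM in wild type cells. The AP-1 subunit genes Junb and Fosl1 lay within 2-fold, in opposite directions. Junb stood at 109 FPKM in resistant and 60.9 FPKM in wild type cells, and Fosl1 at 16.8 FPKM in resistant and 28.4 FPKM in wild type cells.

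**Figure D5:**
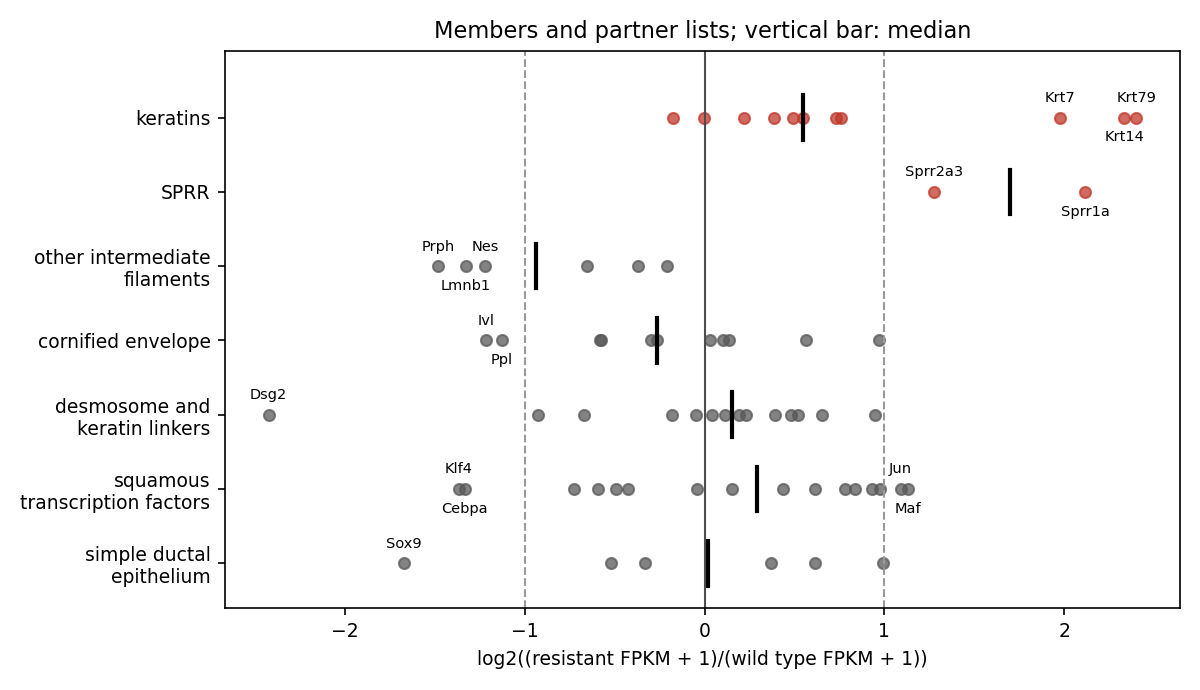
Log2 ratio with a pseudocount of 1 FPKM (horizontal axis, resistant over wild type) of the measured keratins and Sprr genes (SPRR) and of the measured genes in 5 partner lists, 1 point per gene, with a vertical bar at each median and names for genes at least 2-fold apart. The keratin median is 0.55 and the Sprr median 1.70. The median is -0.94 for other intermediate filaments, nuclear lamins among them, and -0.26 for the cornified envelope list.

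The libraries carried an epithelial profile with gaps. Besides the keratins of simple epithelia, Cdh1, the epithelial cadherin gene, stood at 164 FPKM in resistant and 206 FPKM in wild type cells, while Epcam was at 0.10 FPKM in resistant and 0.21 FPKM in wild type cells. Of 12 simple ductal genes beside the keratins 6 were measured. With the pseudocount Sox9 alone was at least 2-fold apart, at 1.88 FPKM in resistant and 8.19 FPKM in wild type cells. Muc1, at 88.8 FPKM in resistant and 44.2 FPKM in wild type cells, fell just short with a log2 ratio of 0.99. Without the pseudocount Muc1 would be just past 2-fold higher. Vimentin, Vim, an intermediate filament of mesenchymal cells and many cultured lines, stood at 856 FPKM in resistant and 991 FPKM in wild type cells. Of the 7 markers taken for stratified squamous epithelium, Krt14, Krt10 and Ivl were measured, and Trp63, Krt5, Krt1 and Lor were at or near 0. Krt13, Ppl, Scel and Klf4, which stratified epithelia also express, were measured as given above. The summed level of 6 fibroblast markers was 0.20 FPKM in resistant and 0.33 FPKM in wild type cells. That of 6 leukocyte markers was 7.24 FPKM in resistant and 1.54 FPKM in wild type cells, with the T cell gene Cd3e listed at 0 in both. Most of it was Cd68, a lysosomal protein gene of macrophages, at 5.48 FPKM in resistant and 1.17 FPKM in wild type cells. The macrophage lysozyme gene Lyz2 stood at 1.53 FPKM in resistant and 0.36 FPKM in wild type cells. The pan-leukocyte gene Ptprc stood at 0.23 FPKM in resistant cells and was listed at 0 in wild type cells. That of 6 acinar markers was 1.48 FPKM in resistant and 4.38 FPKM in wild type cells, all of it Cela1, and that of 5 endothelial markers was 10.4 FPKM in resistant and 7.49 FPKM in wild type cells, nearly all Egfl7. The part of other cells in the member differences was not tested. In bulk RNA, fewer cells that express a gene and less RNA per cell cannot be told apart.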

How the data were processed

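RNA of KPC2 cells was sequenced as 1 resistant and 1 wild type library, per the labels. The submitters' processing notes name HISAT2, StringTie and GRCm38, with no versions or roles. The deposited table gives 1 value per gene and library. Its header names no unit, and FPKM made by the authors is inferred here from the values, since low ones of single-transcript genes are whole multiples of 1 step for a given length. Other deposited columns, per the file headers, hold the authors' log2 fold change, their test statistic (a score), their p-value and their q-value, which are quoted only as theirs.

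Rows of 1 symbol were summed, and 13 rows marked by the authors as failed or too deep to test were left out. The measure of difference was log2((resistant + 1)/(wild type + 1)), which is too small for low genes. Genes reaching 1 FPKM in either library were used and called at 2-fold or more. With 1 library per group no p-value was computed. All 69 members were found in the GENCODE M21 annotation, on the authors' build.

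Depth came from genes with 1 transcript, 1000 to 8000 bases long. FPKM multiplied by the length minus 164 bases lay within 0.1 of whole fragments, up to 5.5, for 93.8% of low values in the resistant and 93.0% in the wild type library. For 1 kb left after those bases 1 fragment was worth 0.0430 FPKM in the resistant and 0.0416 FPKM in the wild type library. Intervals of ratios are exact conditional binomial, 95%. Near copies were sought with BLAST 2.17.0+. Every member at 1 FPKM or more was named, and from the other lists each measured gene at least 2-fold apart plus Trp63, Klf4, Ivl, Epcam and Cdh1. Other list genes (Tgm1, Cstb, Scel, Vim, Lmna, Lmnb2, Junb, Fosl1, Lor, Flg, Lyz2, Ptprc, Cd3e and Egfl7) fall outside this rule and were chosen after their values were seen. Members and lists were chosen with earlier results of these data known. The steps were tested on simulated data. Pseudocounts, level filters, rescaling and a 4-fold threshold were tried as alternatives. Values were computed with numpy 2.4.6 and scipy 1.17.1 in Python 3.11.15, tables were handled with pandas 2.3.3, and plots were drawn in matplotlib 3.10.9. Promoter sequences are from RefSeq, GRCm38.p6; protein sequences were not analysed here.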

Additional observations from a re-analysis of the deposited data

How the results depend on the processing

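The count of 5 of 13 measured members at least 2-fold higher in resistant cells (7.9% of all measured genes) was also 5 of 13 at a pseudocount of 0.1 (10.8% of all genes), 5 of 36 without a level filter (4.45%), 5 of 12 with a filter of 5 FPKM (7.76%), and 5 of 13 rescaled to a median of 0 (7.76%) or to the same upper quartile (6.71%). It was 4 of 13 at a pseudocount of 5 (3.51%), where Sprr2a3 had a log2 ratio of 0.66, and 3 of 13 at a 4-fold threshold (1.8%). No member was at least 2-fold lower under any setting tried, and no member's called ratio changed sign. The Sprr median log2 ratio of 1.70 was 1.88 at a pseudocount of 0.1, 1.39 at a pseudocount of 5 and 0.23 without a filter, over 8 genes. The keratin median of 0.55 was 0.084 without a filter, over 28 genes, 0.64 at a filter of 5 FPKM, 0.53 with the resistant library rescaled to a median log2 ratio of 0, and 0.46 with it rescaled to the same upper quartile. The summed keratin level, 1.48-fold higher in resistant cells, was 1.47-fold higher under the first and 1.40-fold under the second rescaling, which gave 4.09-fold in place of 4.35-fold for the summed Sprr level. In alternatives added after the data were seen, summing Sprr2a1 to Sprr2a3 kept the count at 5. Leaving out Krt7 and Krt80, which share a locus in the authors' table, gave 4 of 11. No paired analysis was possible because each group is 1 library with no replicate number. No library could be left out. With no replicates, the spread between cultures is unknown and limits every value above.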
